A study of Mus musculus with 16 samples.

Results

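The comparison described here is that of liver endothelial cells with activated beta-catenin against control liver endothelial cells, 8 of the 16 RNA-sequencing libraries of a study of liver and lung. Every library with the liver label was taken, and the raw read counts of all genes were used. The 4 control libraries came from adult mice with the genotype Rosa-Bcat-GOF/+, an allele from which an activated form of beta-catenin can be switched on. The 4 other libraries, called GOF, came from mice that also carried VE-Cadherin-CreERT2, a tamoxifen-dependent Cre recombinase under the promoter of an endothelial cadherin gene. The activatable allele was therefore present in both groups, and an effect of the Cre transgene cannot be told apart from an effect of activated beta-catenin. Neither tamoxifen dosing nor the exact age of these adult mice is stated in the sources used here. Endothelial cells were sorted by an antibody against CD31, the adhesion molecule encoded by Pecam1. The libraries carry the letters B, E, F and G in each group, and each GOF library was compared with the control library of its letter. In bulk RNA, fewer cells of a type and less RNA per cell cannot be told apart.

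Beta-catenin is the transcriptional effector of canonical Wnt signalling. When a Wnt ligand binds its Frizzled and LRP receptors, the destruction complex of AXIN, APC and kinases no longer degrades beta-catenin, which then joins TCF/LEF factors at target genes, several of which encode feedback inhibitors. In brain endothelium this pathway maintains barrier properties, whereas liver sinusoidal endothelium is fenestrated, clears macromolecules through scavenger receptors, and itself supplies Wnt ligands and R-spondin to neighbouring hepatocytes.

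Library depth ranged from 22815467 to 37127150 counted reads, with 15533 to 17897 genes having at least 1 read. The 28 pan-endothelial markers summed to 30110 to 35650 CPM (CPM is the read count scaled to library size by TMM) in control and to 32280 to 40250 CPM in GOF, higher in GOF in 4 of 4 pairs, and 2 of them were called higher, Cd93 (0.64 ± 0.0851 SE) and Lmo2 (0.40 ± 0.0888 SE, lost without E, F or G). The CD31 gene Pecam1 stood at 2149 to 2372 CPM in control and 1822 to 2200 CPM in GOF, lower in 4 of 4 pairs. Cdh5, the VE-cadherin gene, stood at 1503 to 1705 and 1668 to 1962 CPM, higher in 4 of 4 pairs. Neither passed the test (log2 fold change -0.11 ± 0.0760 SE and 0.21 ± 0.0736 SE), and the defining markers of the sorted cells were thus abundant in all 8 libraries. Hepatocyte markers were present too, with 28 markers summing to 1134 to 5215 CPM in control, highest in control B, and 1044 to 2287 CPM in GOF. Ctnnb1 (ENSMUSG00000006932), the beta-catenin gene, stood at 912, 713, 813 and 876 CPM in control B, E, F and G and at 866, 697, 758 and 769 CPM in GOF. The groups overlapped and the gene was not called (-0.10 ± 0.0770 SE, adjusted p = 0.617). The sources used here do not say whether reads of the activated allele were counted under this gene, so it is no check of the genotype.

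Of 15555 tested genes 401 (2.58%) were called, of which 240 were higher in GOF, 1.54% of those tested, and 161 were lower, 1.04%, by edgeR's quasi-likelihood test with the letter as a block and Benjamini-Hochberg adjusted p under 0.05. Of the 240 rises 56 were at least 2-fold and 12 at least 4-fold, and of the 161 falls 44 and 4 reached those sizes. The median log2 fold change was 0.67 among rises, -0.77 among falls and 0.0076 over all tested genes. All 240 rises were higher in GOF in 4 of 4 pairs, and 158 of the 161 falls were lower in 4 of 4. The test used these same pair differences, so the shared sign is no separate support. Over all 15555 tested genes 2023 were higher and 1731 lower in 4 of 4 pairs. The calls rested on the pairing: without the letter 5 genes passed, 0.0321% of those tested, and 1010 had an unadjusted p under 0.05 against 2386 with it. The 4 GOF libraries lay wholly above the 4 controls for 409 tested genes (2.63%) and wholly below for 345 (2.22%), and among called genes this was so for 127 rises and 72 falls. In the authors' deposited table a total of 130 genes had an adjusted p under 0.05, and 117 of them were among the 401 called here. Pair E weighed on the rises and pair F on the falls: without E 134 rises were called, and without F 85 falls. The gene lists counted below were chosen with earlier results of these data known, so their counts describe and do not test a theme. They are to be read beside the 1.54% higher and 1.04% lower of all tested genes, so few calls in a list are no result about that list. A gene can stand in more than 1 list.

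**Figure D1:**
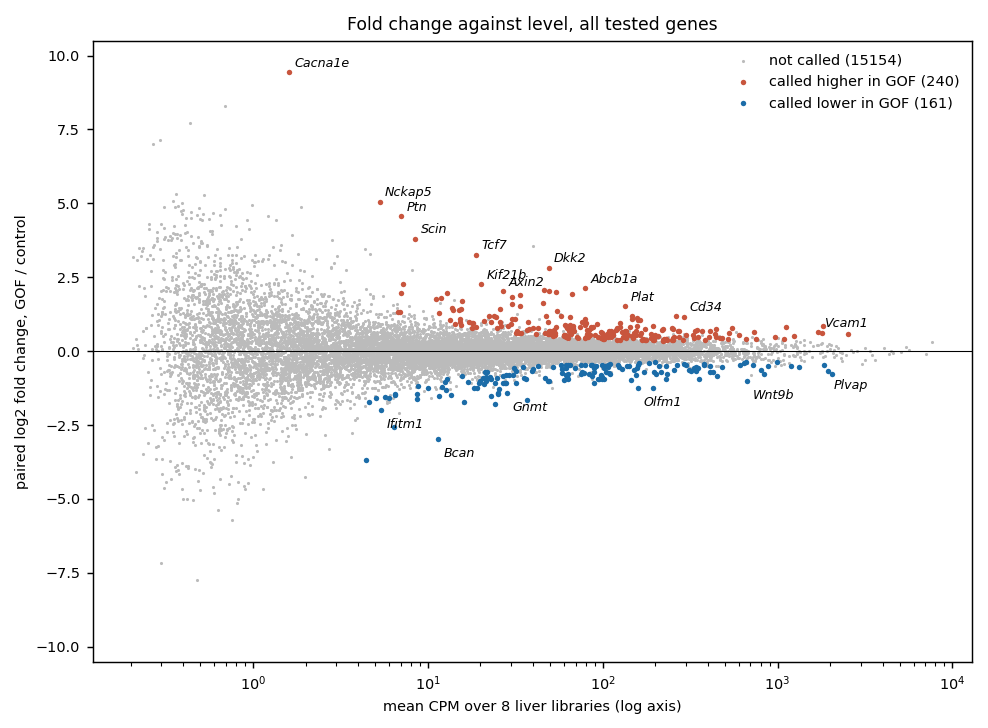
Each point is a tested gene, with its mean CPM over the 8 liver libraries on a log axis and its paired log2 fold change on the vertical axis; the 240 genes called higher are red, the 161 called lower blue and the rest grey. Rises of over 4-fold such as Tcf7 and Dkk2 lay at low to middle levels, while Vcam1 and Plvap were called at high levels with smaller changes; the position of Cacna1e, which had 0 reads in control, depends on the prior count.

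Within the Wnt pathway, a TCF factor and feedback genes rose while the ligands made by liver endothelium fell. Tcf7 (ENSMUSG00000000782), a DNA-binding partner of beta-catenin, stood at 4.09, 2.66, 2.36 and 5.20 CPM in control B, E, F and G and at 49.5, 19.3, 36.1 and 32.7 CPM in GOF. Every GOF library thus lay above every control, and the paired log2 fold change was 3.26 ± 0.242 (SE; edgeR adjusted p = 0.00016). Axin2 (ENSMUSG00000000142), a scaffold of the destruction complex that is itself a Wnt target, went from 13.6, 6.69, 10.9 and 9.32 CPM to 73.4, 24.2, 34.7 and 42.3 CPM. Dkk2, a secreted modulator of the LRP co-receptors, went from 7.90, 4.00, 13.1 and 30.9 CPM to 94.7, 31.3, 112 and 98.9 CPM. For both genes every GOF library lay above every control, although for Dkk2 control G (30.9) came close to GOF E (31.3). Sp5, a transcription factor induced by Wnt, stood at 3.10 to 4.29 CPM in control and 5.80 to 17.3 CPM in GOF, and Myc, a growth-promoting factor, at 34.5 to 128 CPM and 74.3 to 231 CPM, with overlap for Myc. Of 23 tested Wnt targets and feedback inhibitors 4 rose and 1 fell (median 0.22), and of 23 destruction complex components and TCF/LEF factors 2 rose, Tcf7 and Apc (0.40 ± 0.0843 SE). Lef1, another factor of that family, was at 0 to 0.730 CPM in control and 0 to 3.21 CPM in GOF and was not called. The fallen member was Dkk3 (-0.83 ± 0.141 SE), a Dickkopf relative, and Frzb, a secreted Frizzled-related Wnt antagonist outside the list, stood at 56.9 to 108 CPM in control and 27.1 to 56.8 CPM in GOF (-0.94 ± 0.123 SE). Among 18 receptors and co-receptors 1 rose, Gpr124 (0.38 ± 0.0838 SE), a co-receptor of Wnt7 signalling in brain endothelium. Sp5 (1.11 to 1.48 over the alternatives), Apc (0.19 to 0.44) and Gpr124 (0.34 to 0.41) each lost the call whichever pair was left out, and Dkk3 (-0.86 to -0.75) without E or F.

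Of 12 tested Wnt ligands and R-spondins 3 fell and 0 rose, and 2 of the 12 had a positive fold change. Wnt2 (ENSMUSG00000010797) stood at 468, 486, 569 and 338 CPM in control B, E, F and G and at 236, 285, 307 and 151 CPM in GOF. Wnt2 was lower in 4 of 4 pairs, with a log2 fold change of -0.95 ± 0.0897 (SE; edgeR adjusted p = 0.00027), and the groups did not overlap. Wnt9b, made by endothelium around the central vein, went from 1185, 652, 951 and 768 CPM to 400, 381, 680 and 338 CPM, and the groups overlapped through GOF F. Rspo3, the R-spondin that amplifies Wnt signals to pericentral hepatocytes, went from 1627, 1321, 1343 and 1258 CPM to 1007, 1031, 1206 and 718 CPM. Its call (-0.50 ± 0.108 SE) was lost without pair B, E or G and after removal of the length trend described below (-0.62 to -0.40 over the alternatives), whereas those of Wnt2 and Wnt9b (-1.001 ± 0.147 SE) held in each of these.

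**Figure D2:**
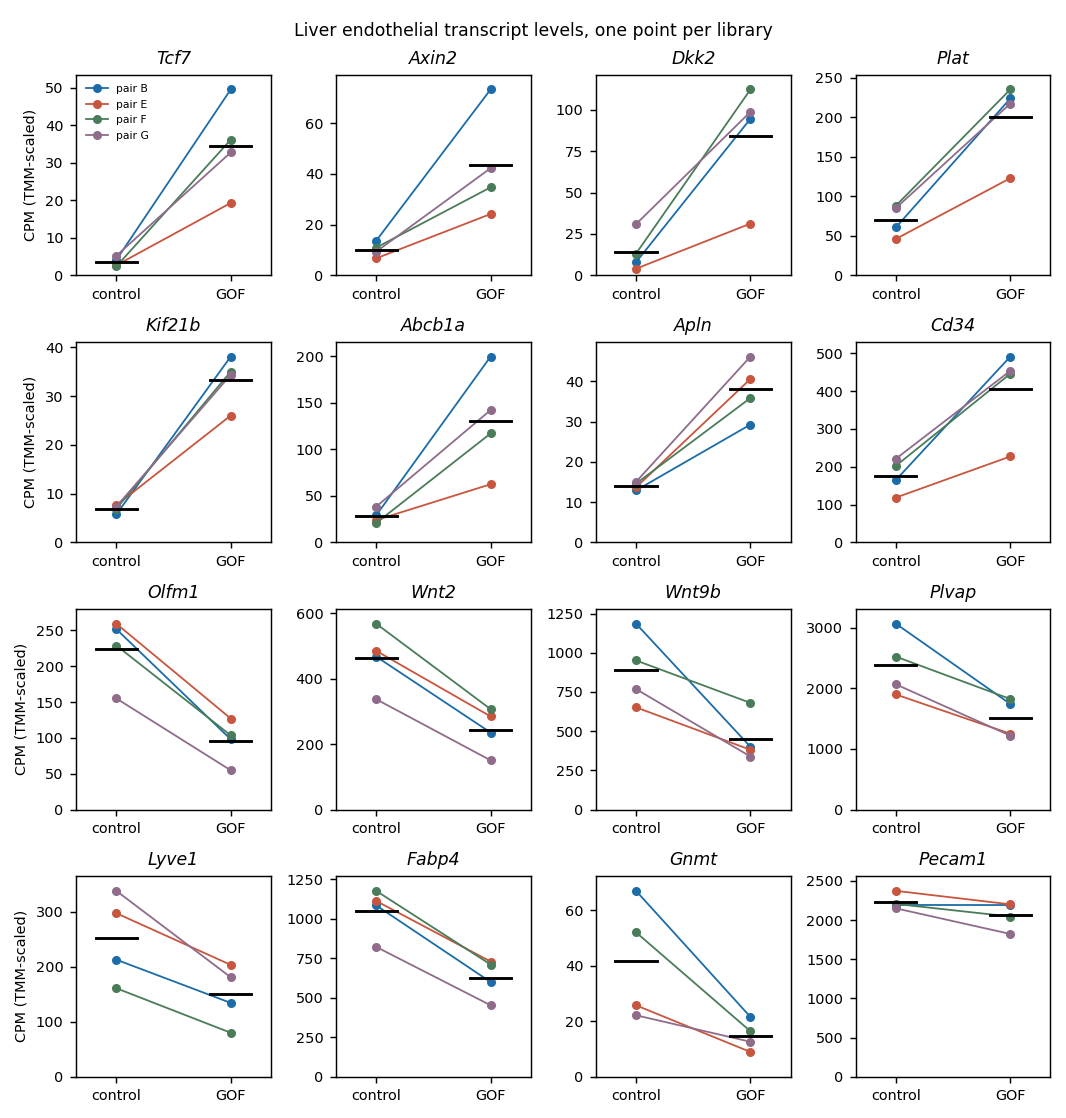
Each panel shows 1 gene, with a point for every library, a line joining the control and GOF library of the same letter, and a black bar at the group mean; the vertical axis is CPM from 0. Lines rose in 4 of 4 pairs for Tcf7 through Cd34 and fell in 4 of 4 for Olfm1 through Gnmt. Pecam1 was also lower in 4 of 4 pairs, within 1822 to 2372 CPM, and was not called.

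The letters to which TCF factors bind were looked for near the starts of the changed genes, because Axin2 and Tcf7 are textbook targets of the pathway. Promoters of 250 bases before to 50 bases after the start were taken from RefSeq (GRCm38.p6) and searched for CTTTGAT and CTTTGAA on both strands, read as ATCAAAG and TTCAAAG on the reverse. Of the 32851 RefSeq promoters searched 8.65% held at least 1 match. The share was 5.91% of 237 promoters of the risen genes (177 of 240 genes matched by symbol), 9.46% of 148 promoters of the fallen genes (112 of 161 matched) and 6.23% of 14124 promoters of tested genes. Those of Axin2, Tcf7, Dkk2 and Apln held 0 matches in this window. Abcb1a held 2 matches, 153 and 59 bases before the start, and Sp5 held 1, at 104 bases before it. By gene, 13 of the 177 matched risen genes held the motif (7.34%), 12 of the 112 fallen (10.7%) and 7.42% of the tested genes. The promoters of Abcb1a and Sp5, picked from these 13 risen genes, are printed as examples. Capitals mark the matches, which are a description and not binding sites.
Abcb1a, chr5:8566841-8567140, plus strand: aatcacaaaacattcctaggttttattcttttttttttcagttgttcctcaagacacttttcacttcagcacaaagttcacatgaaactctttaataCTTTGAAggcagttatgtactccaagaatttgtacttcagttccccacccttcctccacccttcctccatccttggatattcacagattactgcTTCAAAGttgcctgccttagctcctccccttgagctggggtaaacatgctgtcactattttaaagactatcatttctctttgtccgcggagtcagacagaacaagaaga
Sp5, chr2:70474673-70474972, plus strand: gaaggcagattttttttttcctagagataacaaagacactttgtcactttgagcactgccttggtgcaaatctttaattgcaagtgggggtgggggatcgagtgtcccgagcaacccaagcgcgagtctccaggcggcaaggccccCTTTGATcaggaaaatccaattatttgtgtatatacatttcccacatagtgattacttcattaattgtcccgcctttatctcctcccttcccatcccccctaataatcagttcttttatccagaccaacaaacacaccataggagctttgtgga

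The rises with the smallest p values included a protease of fibrinolysis and brakes on growth factor signals. Plat (ENSMUSG00000031538), the tissue plasminogen activator that endothelium releases to dissolve fibrin, stood at 60.7, 46.1, 88.1 and 85.1 CPM in control B, E, F and G and at 224, 123, 235 and 217 CPM in GOF (1.52 ± 0.107 SE, adjusted p = 0.00016). GOF E, the lowest GOF library, was still above the highest control. Plaur, the receptor of the related urokinase, went from 21.9 to 62.5 CPM in control to 45.9 to 123 CPM in GOF, higher in 4 of 4 pairs with overlapping groups. Lrig1, a membrane protein that dampens receptor tyrosine kinases, went from 56.5 to 106 CPM to 116 to 271 CPM. Dusp2, a phosphatase of MAP kinases, went from 14.2, 13.6, 13.2 and 31.9 CPM to 55.8, 49.6, 86.5 and 106 CPM, above every control in each GOF library. Both belong to a list of 25 MAPK feedback genes, of which 2 rose and 0 fell. Bmx, a cytoplasmic tyrosine kinase of arterial endothelium, went from 63.8 to 126 CPM to 137 to 284 CPM, the only rise among 21 arterial genes. Of 31 coagulation and fibrinolysis genes 2 rose, Plat and Plaur, and 2 fell, the serpins Serpinb6b (-0.69 ± 0.114 SE) and Serping1 (-0.79 ± 0.182 SE), the C1 inhibitor. The call of Serping1 (-0.99 to -0.54) passed in 5 of 14 alternatives and was lost without pair B, F or G, with RLE scaling, with a mean of at least 1 CPM, with robust edgeR and when the length trend was removed.

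Transporters and junction genes of continuous, barrier-forming capillaries rose in part. Of 52 genes known from continuous or brain capillaries 7 rose and 0 fell (median 0.25). A positive fold change was found in 35 of the 52, against 51.1% of all tested genes. Of 35 efflux pumps and lipid flippases 6 rose and 0 fell (median 0.11). Abcb1a and Atp10a are counted among the rises of both lists. Abcb1a (ENSMUSG00000040584), the P-glycoprotein drug pump whose promoter is shown above, stood at 29.1, 24.0, 20.8 and 38.4 CPM in control B, E, F and G and at 200, 62.5, 117 and 142 CPM in GOF (2.14 ± 0.195 SE, adjusted p = 0.000238). GOF B was highest and GOF E lowest, and all 4 lay above the controls. Atp10a, a flippase, went from 17.0, 10.2, 12.7 and 13.2 CPM to 64.1, 39.4, 34.98 and 50.3 CPM. Its relatives Atp8a1 (0.76 ± 0.114 SE) and Atp9a (0.67 ± 0.147 SE), the pump Abcg2 (0.58 ± 0.106 SE) and Abcc9 (1.43 ± 0.278 SE), a potassium channel regulator that is also a pericyte marker, made up the rest. Cd34, a sialomucin of continuous capillaries and stem cells, went from 119 to 221 CPM to 227 to 491 CPM, with GOF E (227) next to control G (221). Cgnl1, paracingulin of cell junctions, rose (0.67 ± 0.104 SE), as did Palmd (0.67 ± 0.122 SE). Cldn5, the main claudin of the blood-brain barrier, stood at 317 to 501 CPM in control and 421 to 604 CPM in GOF and was not called (0.33 ± 0.0874 SE, adjusted p = 0.0787). The calcium channel gene Cacna1e, of the 42 ion channels and pumps tested, had 0 reads in the 4 controls and 403 in the GOF libraries, at 5.97, 2.56, 0.490 and 3.93 CPM in B, E, F and G. The other called channel was Fam38a, the mechanosensor Piezo1 (0.47 ± 0.0996 SE). The median of the pump and flippase list turned to -0.05 when the length trend was removed, with 5 of its members called. The calls of Abcc9 (1.13 to 1.77) were lost without E or G, of Atp9a (0.48 to 0.80) without B, E or G, of Palmd (0.60 to 0.81) without B, E or F, of Fam38a (0.34 to 0.53) without E, F or G, and of Cacna1e without B. Atp9a and Fam38a were also lost when the length trend was removed.

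**Figure D3:**
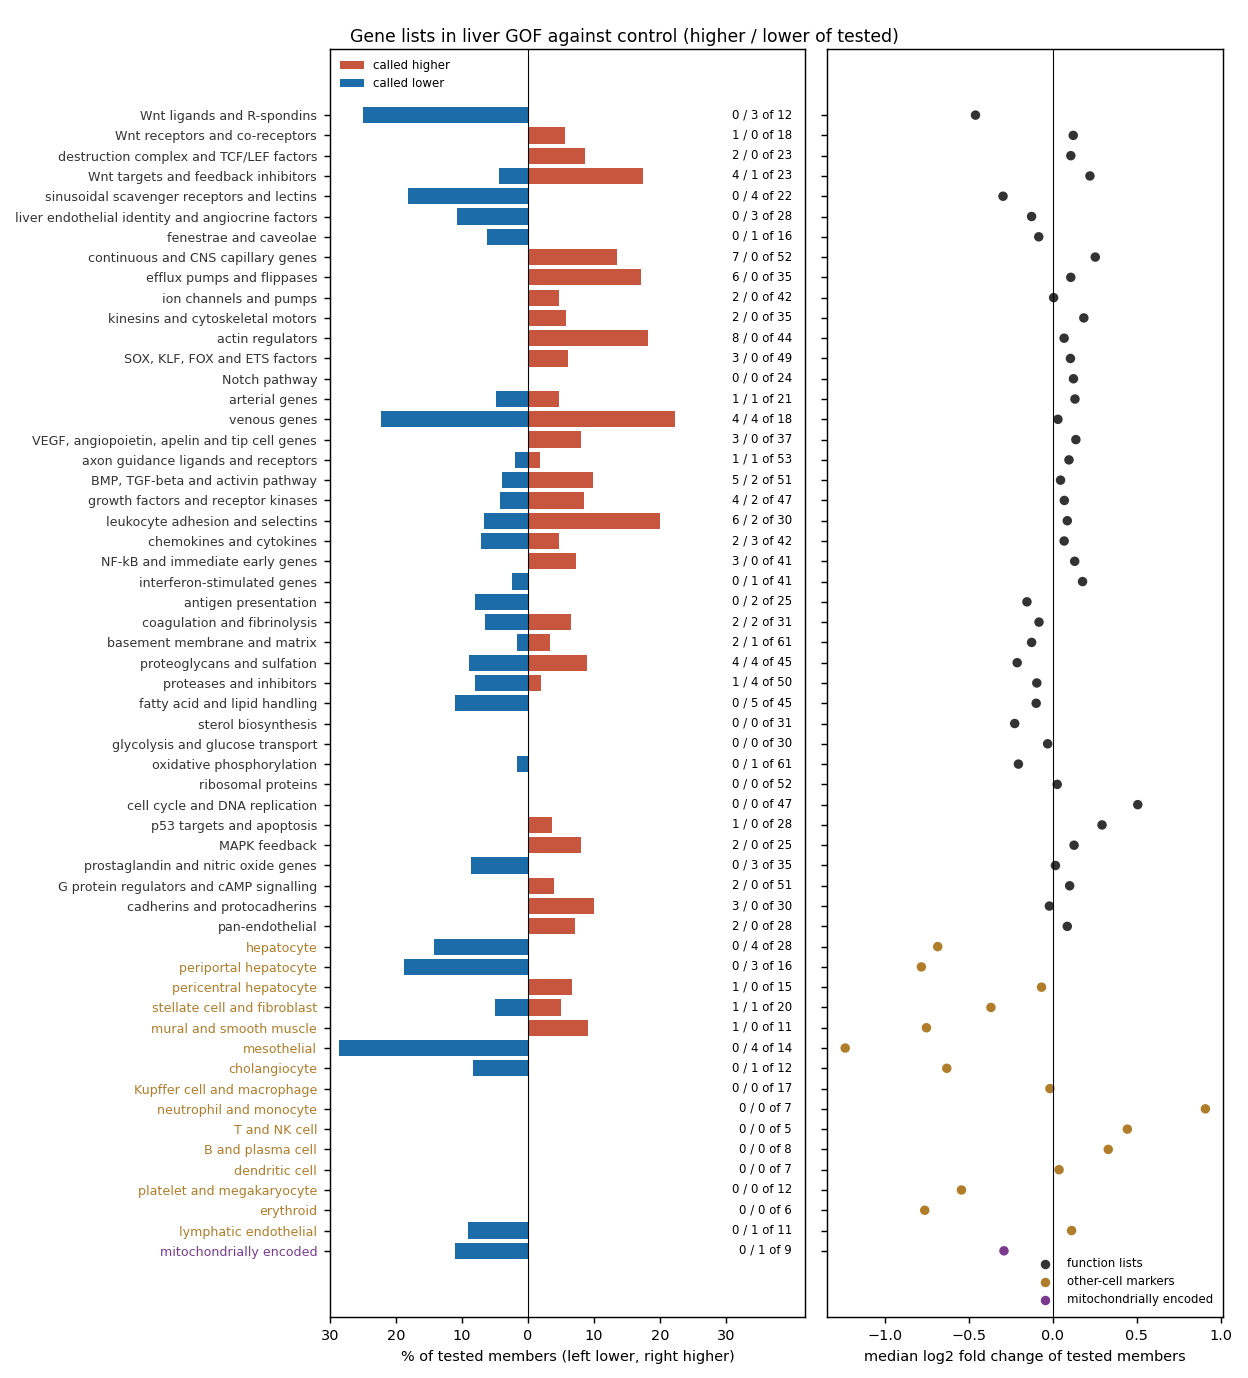
Left, the share of tested members of each gene list called higher (red, right) or lower (blue, left), with the counts higher / lower of tested; right, the median log2 fold change of the tested members, with function lists in black, markers of other cells in ochre and mitochondrially encoded genes in purple. Actin regulators had 8 of 44 members higher and 0 lower, and mesothelial markers 0 higher and 4 of 14 lower with a median of -1.24.

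In the lists of cytoskeletal genes, which were chosen with earlier results of these data known, the called members rose. Of 44 actin regulators 8 rose and 0 fell, although their median of 0.07 was near that of all genes, and of 35 kinesins and myosins 2 rose and 0 fell. Kif21b (ENSMUSG00000041642), a kinesin that moves along microtubules, stood at 5.76, 7.62, 6.92 and 7.35 CPM in control B, E, F and G and at 38.1, 26.0, 35.02 and 34.4 CPM in GOF (2.26 ± 0.192 SE, adjusted p = 0.000194). Controls were nearly level, and GOF E was again the lowest of the GOF libraries. Limch1, an activator of non-muscle myosin, stood at 43.0 to 69.9 CPM and 86.2 to 140 CPM, and Ablim1, an actin-binding LIM protein, at 82.1 to 137 CPM and 140 to 335 CPM. For both genes every GOF library lay above every control. The actin-severing protein Scin stood at 0.375, 0.174, 2.45 and 2.45 CPM in control and at 24.4, 3.48, 17.5 and 16.9 CPM in GOF (3.80 ± 0.513 SE). Nckap5 went from 0 to 0.602 CPM to 5.78 to 17.0 CPM. Fscn1, the actin bundler fascin of filopodia, rose by 0.68 ± 0.0990 (SE) and Palld, palladin of stress fibres, by 0.79 ± 0.139 (SE), both with overlapping groups. The intermediate filament gene Vim stood at 1337, 1079, 1342 and 1902 CPM in control and 2642, 1639, 2249 and 2167 CPM in GOF, and Myof, a membrane repair protein of the ferlin family, at 67.0 to 128 CPM and 163 to 253 CPM. Without pair E the calls of Palld (0.66 to 0.99) and Vim (0.51 to 0.78) were lost, that of Vim also without F, and 5 actin regulators were called.

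Transcription factors and growth factor systems changed in single members rather than throughout. Of 49 SOX, KLF, FOX and ETS factors 3 rose and 0 fell. Sox4, known from embryonic and tumour tissue, stood at 15.4, 20.4, 28.2 and 26.0 CPM in control B, E, F and G and at 84.6, 59.8, 72.8 and 58.2 CPM in GOF (1.63 ± 0.190 SE, adjusted p = 0.00128). Each GOF library was above all controls. Klf7 (0.54 ± 0.0913 SE) and Foxn2 (0.57 ± 0.134 SE) changed less, and Klf7 differed more between pairs (32.7 CPM in control B, 141 CPM in control E) than between genotypes. Gata4, a master regulator of sinusoidal identity, stood at 426 to 710 CPM in control and 432 to 610 CPM in GOF, and Maf, another sinusoidal factor, at 175 to 488 and 166 to 399 CPM, neither of them called. The call of Klf7 was lost without E and that of Foxn2 (0.48 to 0.69) without E, F or G.

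Among 37 VEGF, angiopoietin, apelin and tip cell genes 3 rose and 0 fell. The risen members were Apln and, already counted in other lists above, Cd34 and Plaur. Apln, the apelin peptide secreted by sprouting tip cells, stood at 12.9, 13.7, 14.6 and 15.04 CPM in control and at 29.3, 40.6, 35.8 and 46.1 CPM in GOF (1.42 ± 0.150 SE, adjusted p = 0.000687). Here GOF B was the lowest GOF library, unlike for Tcf7, Axin2 and Abcb1a, where it was the highest. The VEGF receptor gene Kdr was not called, at 1235 to 2553 CPM and 1346 to 2627 CPM. Of 51 genes of the BMP, TGF-beta and activin pathways 5 rose and 2 fell. The ligand Tgfb2 went from 126, 91.9, 89.7 and 140 CPM to 255, 138, 178 and 245 CPM, and the stress cytokine Gdf15 from 11.03 to 23.2 CPM to 22.4 to 84.5 CPM, with overlap for both. The receptors Tgfbr2 (0.40 ± 0.0754 SE) and Bmpr2 (0.46 ± 0.0965 SE) and the follistatin-like protein Fstl1 (0.40 ± 0.0905 SE) also rose, and Id2, a target of BMP signalling, fell (-0.50 ± 0.0835 SE). Of 47 growth factors and receptor kinases 4 rose and 2 fell. The heparin-binding factor Ptn stood at 2.21, 0.0290, 0 and 1.76 CPM in control and 25.1, 4.71, 8.58 and 14.0 CPM in GOF. The insulin receptor Insr went from 221 to 307 CPM to 385 to 485 CPM, and Igf2r, which clears IGF2 and sorts lysosomal enzymes, from 57.9 to 74.0 CPM to 90.4 to 131 CPM. The neurotrophin Ntf3 fell from 32.5 to 47.0 CPM to 14.5 to 21.1 CPM, and Fgfr1, an FGF receptor, by 0.58 on the log2 scale. Of 53 axon guidance genes 1 rose, the semaphorin receptor Plxna1 (0.60 ± 0.134 SE), and 1 fell, netrin Ntn1 (-0.64 ± 0.0926 SE). These counts are near the shares over all tested genes, 1.54% higher and 1.04% lower. The calls of Tgfbr2 (0.31 to 0.43) were lost without E or F, of Bmpr2 (0.24 to 0.53) and Fstl1 (0.33 to 0.48) without B, E or F, of Hbegf (0.42 to 0.54) without E or G, and of Fgfr1 (-0.71 to -0.43) and Plxna1 (0.49 to 0.74) without E, F or G. Tgfbr2, Bmpr2 and Plxna1 were also lost when the length trend was removed, and Ptn (3.70 to 5.44) with robust edgeR.

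Adhesion molecules that capture leukocytes rose within pairs from very different starting levels. Vcam1, the ligand of lymphocyte integrins, stood at 712, 1941, 1374 and 1295 CPM in control B, E, F and G and at 1119, 3147, 2246 and 1816 CPM in GOF (0.64 ± 0.0776 SE, adjusted p = 0.00185). E-selectin, Sele, went from 457, 2091, 1318 and 1485 CPM to 1015, 3400, 2950 and 1888 CPM, and P-selectin, Selp, from 846, 3363, 1996 and 1918 CPM to 1475, 5317, 2957 and 2287 CPM. In all 3 genes pair B was lowest and pair E highest in both genotypes, and the groups overlapped although each pair rose. The laminin-binding integrin chains Itga6, at 112 to 161 CPM and 182 to 273 CPM, and Itgb4 (0.80 ± 0.135 SE) rose with them. Chst2, a sulfotransferase that makes selectin ligands, rose by 0.55 ± 0.113 (SE). Alcam, a cell adhesion molecule that binds CD6 of T cells, went the other way, from 120, 110, 88.5 and 170 CPM to 46.0, 54.8, 72.4 and 55.7 CPM (-1.07 ± 0.177 SE). In all, 6 of 30 leukocyte adhesion genes rose and 2 fell. Tnfaip3, the NF-kB inhibitor A20, had the same spread between pairs, from 240 to 1593 CPM in control and 404 to 2321 CPM in GOF (0.51 ± 0.0878 SE), and with Fosl2 and Dusp2 made up the 3 rises among 41 NF-kB and immediate early genes. Of 42 chemokine and cytokine genes 2 rose, Cxcl2 (0.64 ± 0.144 SE) and Cxcl1 (0.39 ± 0.0910 SE), which attract neutrophils, and 3 fell. The fallen members were the alarmin Il33 and the decoy receptors Cxcr7 (-0.79 ± 0.108 SE), now called Ackr3, and Ccrl1 (-0.71 ± 0.155 SE), now Ackr4. The neutrophil and monocyte markers summed to 95.6 to 209 CPM in control and 89.3 to 166 CPM in GOF, and their part in these values was not tested. The calls of Cxcl2 (0.50 to 0.79) and Cxcl1 (0.32 to 0.50) were lost without E, F or G, of Il33 (-0.65 to -0.52) without E or F, of Tnfaip3 (0.43 to 0.56) without E, and of Ccrl1 (-0.78 to -0.66) and Chst2 (0.48 to 0.64) on leaving out any pair.

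Of 18 tested venous genes 4 were higher and 4 lower under the paired test and also on leaving out each pair. The risen members were Vcam1, Sele, Selp and Ch25h, a cholesterol hydroxylase, at 11.5 to 72.1 CPM and 23.2 to 111 CPM. The fallen members included Car8, a carbonic anhydrase relative, from 372, 471, 447 and 379 CPM to 202, 303, 323 and 226 CPM, and the protease Prss23, from 193 to 404 CPM to 148 to 227 CPM. Among arterial genes Gja4, connexin 37, fell (-0.48 ± 0.0865 SE), a call that was lost without F and when the length trend was removed (-0.52 to -0.37). Of 24 Notch pathway genes (median 0.12) 0 were called by edgeR in either direction, with 7 higher and 1 lower at an unadjusted p under 0.05. Over all 15555 tested genes 2386 had such a p. DESeq2 with the block called 4 higher, and limma voom 4 higher and 1 lower.

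Genes that mark the fenestrated, scavenging sinusoid fell in part. Of 22 scavenger receptors, lectins and related sinusoidal genes 4 fell and 0 rose (median -0.30), and of 16 genes of fenestrae and caveolae 1 fell. Plvap (ENSMUSG00000034845), which forms the diaphragms of fenestrae, stood at 3066, 1899, 2523 and 2066 CPM in control B, E, F and G and at 1742, 1251, 1824 and 1219 CPM in GOF (-0.66 ± 0.0833 SE, adjusted p = 0.00194). All 4 GOF libraries lay below the controls. Lyve1, a hyaluronan receptor shared by sinusoids and lymphatic vessels, stood at 213, 298, 161 and 338 CPM in control and at 134, 204, 80.1 and 181 CPM in GOF, lower in 4 of 4 pairs with overlapping groups. The 11 lymphatic markers, which include Lyve1, summed to 1641 to 2537 CPM and 1512 to 2792 CPM, and 0 others of them were called. Ehd3, an endocytic trafficking protein, went from 2341, 3285, 2340 and 2202 CPM to 996, 2194, 1310 and 1640 CPM. Clec4g, the lectin LSECtin, went from 639, 1713, 710 and 746 CPM to 284, 1200, 427 and 703 CPM, and the lysosomal protease Ctsl fell by 0.41 on the log2 scale. For these 3 genes libraries of pair E were the highest of their group. The calls of Clec4g (-0.81 to -0.44) and Ctsl (-0.47 to -0.37) were lost without B, E or F, and that of Clec4g also with DESeq2, with robust edgeR and when the length trend was removed. The 4 falls of the sinusoidal list became 2 without B or F, 3 without E and 5 without G.

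Lipid carriers and enzymes fell as well, 5 of 45 with 0 higher and a median of -0.10. Fabp4, a fatty acid carrier of capillary endothelium, stood at 1086, 1114, 1178 and 823 CPM in control B, E, F and G and at 600, 730, 711 and 453 CPM in GOF (-0.76 ± 0.0816 SE, adjusted p = 0.000729). Fabp5, a related carrier, went from 23.1 to 33.5 CPM to 12.01 to 18.4 CPM. The monoacylglycerol lipase Mgll (-0.54 ± 0.0953 SE), the fatty acid transport protein relative Slc27a3 (-0.73 ± 0.138 SE) and the phospholipid transfer protein Pltp (-0.56 ± 0.115 SE) completed the 5. Olfm1 (ENSMUSG00000026833), a secreted olfactomedin, had the smallest p among all falls, from 252, 259, 229 and 155 CPM to 98.0, 127, 104 and 54.8 CPM (-1.26 ± 0.0996 SE, adjusted p = 0.000176). Bace2, a transmembrane protease, went from 472 to 586 CPM to 288 to 352 CPM, and Nqo1, a quinone reductase of the antioxidant response, from 107 to 145 CPM to 55.6 to 78.5 CPM. For Olfm1, Bace2 and Nqo1 alike every GOF library lay below every control. Of 25 antigen presentation genes 2 fell, the nonclassical class I genes H2-T23 (-0.85 ± 0.131 SE) and H2-T22 (-0.70 ± 0.115 SE), whose near-identical relatives make the split of their reads uncertain. Of 35 prostaglandin and nitric oxide genes 3 fell, among them Ptgs1, cyclooxygenase 1, from 454 to 621 CPM to 281 to 485 CPM, and Pde2a, a cyclic nucleotide phosphodiesterase, from 1569 to 2489 CPM to 1268 to 2057 CPM. The third was Arg1, which hepatocytes express strongly. The calls of Mgll (-0.61 to -0.45) were lost without E or F, of Slc27a3 (-0.87 to -0.55) without F, of Pltp (-0.68 to -0.47) without B, E or G, of Ptgs1 (-0.65 to -0.42) when B, F or G was dropped and of Pde2a (-0.58 to -0.35) without B or F.

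Called matrix and proteoglycan genes went in both directions. Of 45 proteoglycan and sulfation genes 4 rose and 4 fell. The glypican Gpc4 stood at 6.14 to 9.98 CPM in control and 14.7 to 30.5 CPM in GOF and Chst11, a chondroitin sulfotransferase, at 23.3 to 25.8 CPM and 37.1 to 60.4 CPM, whereas the glypican Gpc1 stood at 13.4 to 25.7 CPM and 2.67 to 11 CPM. Both glypicans carry heparan sulfate, and their groups did not overlap in opposite directions. Bcan, the brevican core protein, went from 13.1, 13.3, 21.5 and 32.2 CPM to 5.84, 1.19, 1.80 and 2.54 CPM (-2.98 ± 0.416 SE), and it was also among the mesothelial markers described next. Of 61 basement membrane and matrix genes Lama5 (0.68 ± 0.150 SE), a laminin chain, and Sparc (0.48 ± 0.0992 SE), a collagen chaperone, rose and the collagen Col13a1 fell (-0.84 ± 0.151 SE). Over all tested genes 1.54% rose and 1.04% fell, so these few calls are no result about the list. These 2 rises and 1 fall became 7 and 8 with DESeq2 with the block, 7 and 9 with limma voom, 0 and 2 without pair B and 0 and 3 without pair E. Among 30 cadherins and protocadherins 3 rose and 0 fell, led by Celsr1, a planar polarity cadherin, from 4.21 to 13.8 CPM to 15.4 to 34.5 CPM. The calls of Gpc1 (-1.63 to -1.12) were lost without E, of Lama5 (0.44 to 0.78) when B or E was dropped, with DESeq2, with robust edgeR and when the length trend was removed, of Sparc (0.39 to 0.59) without B, E or G and of Col13a1 (-1.03 to -0.66) without E or F.

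Several falls were in genes of other liver cells. Gnmt, glycine N-methyltransferase of hepatocytes, stood at 67.0, 25.8, 52.1 and 22.2 CPM in control B, E, F and G and at 21.5, 8.93, 16.4 and 12.6 CPM in GOF (-1.42 ± 0.173 SE, adjusted p = 0.00185). Hpd, of tyrosine breakdown, went from 63.9, 17.98, 45.0 and 22.9 CPM to 17.8, 6.19, 15.9 and 12.8 CPM, and Arg1, the urea cycle arginase, from 58.6, 21.2, 32.5 and 26.1 CPM to 10.2, 9.93, 13.9 and 11.5 CPM. The hepatocyte marker sum in control was 5215, 1293, 2884 and 1134 CPM in B, E, F and G. In GOF that sum was 2287, 1044, 1730 and 1165 CPM, lower in 3 of 4 pairs. Of 28 hepatocyte markers 4 fell and 0 rose (Ahsg, Ttr, Apoc1 and Rbp4; median -0.69), of 16 periportal markers 3 fell (Arg1, Gls2 and Upb1; median -0.78), and of 15 pericentral markers 0 fell and 1 rose, Axin2. The periportal sum was lower in 4 of 4 pairs, at 123 to 312 CPM in control and 95.5 to 170 CPM in GOF, and the pericentral sum in 2 of 4. All 14 tested mesothelial markers had negative fold changes and 4 fell (Bcan, Upk3b, Cldn15 and Krt7; median -1.24), with a sum of 500 to 666 CPM in control and 329 to 477 CPM in GOF, lower in 4 of 4 pairs. The sums of the other 14 lists of other cells overlapped between the groups. Within pairs, however, those of the cholangiocyte, neutrophil and monocyte, B and plasma cell, dendritic cell and platelet markers were lower in 4 of 4. The T and NK cell sum was lower in 0 of 4. Sums weigh abundant markers most, and single markers did not all follow them. Of tested markers, 5 of 7 for neutrophils and monocytes had positive fold changes, as did 5 of 8 for B and plasma cells. The count was 4 of 7 for dendritic cells and 4 of 5 for T and NK cells. It was 3 of 12 for cholangiocytes and 3 of 12 for platelets. The part of these cells in the falls of other genes was not tested. The calls of Apoc1 (-1.25 to -0.75) and Rbp4 (-1.39 to -0.80) were lost without B or F, of Ttr (-1.17 to -0.70) without E, of Cldn15 (-1.06 to -0.83) without F or G, and of Gls2, Upb1 and Krt7 on leaving out any pair. Without G 12 hepatocyte markers were called lower, and without B or F 2 were; the 4 mesothelial calls became 3 without B or F, 2 without G and 5 without E.

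Some large groups of genes shared a direction with few or 0 calls. Over all 15555 tested genes 51.1% had a positive fold change, and 1731 genes were lower in 4 of 4 pairs. An unadjusted edgeR p under 0.05 was found for 2386 of the 15555, and list counts at that level are to be read beside it. Of 61 oxidative phosphorylation genes 56 had a negative fold change (median -0.21) and 27 were lower in 4 of 4 pairs, but 1 was called, the complex I subunit Ndufa8 (-0.45 ± 0.0881 SE), and it was lost on leaving out any pair. Mitochondrially encoded transcripts, which also reflect sample quality, summed to 10570, 20770, 14420 and 12300 CPM in control B, E, F and G and to 10100, 17830, 12610 and 10220 CPM in GOF, lower in 4 of 4 pairs with overlapping groups. Of 9 tested such genes 1 fell, mt-Nd2 (-0.38 ± 0.0799 SE), another complex I subunit, whose call was lost without E, F or G and when the length trend was removed (-0.41 to -0.28). Of 47 cell cycle and replication genes 40 had a positive fold change (median 0.51), and 0 were called by edgeR, with 14 higher and 0 lower at an unadjusted p under 0.05. Without pair F 3 were called and the median was 0.72, and without pair B 0 were called and it was 0.28. DESeq2 with the block called 2 and limma voom 3, all higher. Of 31 sterol synthesis genes, 30 glycolysis genes and 52 ribosomal protein genes 0 were called by edgeR, with 8, 4 and 1 at an unadjusted p under 0.05 and medians of -0.23, -0.03 and 0.03. Without pair B the sterol median was -0.13, and the glycolysis median turned to 0.0044 with 1 gene called higher. The ribosomal median turned to -0.0020 with upper-quartile scaling. DESeq2 with the block called 0, 1 and 0 members of these 3 lists, and limma voom 1, 2 and 0, all of them lower. Of 28 p53 targets and apoptosis genes 1 was called, the death receptor Eda2r, from 3.82, 5.995, 5.19 and 6.10 CPM to 16.7, 15.8, 15.6 and 25.7 CPM (1.79 ± 0.227 SE). Of 41 interferon-stimulated genes Ifitm1 fell (-2.003 ± 0.419 SE), a call lost without E, F or G (-2.27 to -1.60), and 30 had a positive fold change. Without pair F 4 members were called higher and 0 lower, and with no low-count filter 5 higher and 2 lower.

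The direction of change was related to the exon length of the gene. Over 15033 tested genes with an annotated exon length, the median log2 fold change was -0.07 in the shortest and 0.13 in the longest of 5 length classes of near-equal gene number. The longest class lay above the shortest in 4 of 4 pairs, although in pairs E and G the second class lay below the shortest. Risen genes had a median exon length of 7.34 kb and fallen genes of 3.18 kb, against 4.05 kb over all. In the longest class 4.12% of genes rose and 0.466% fell, and in the shortest 0.232% rose and 1.2% fell. When the trend with length was removed from every library, 169 genes were higher, 153 of them among the 240, and 151 lower, 126 of them among the 161. Of the 135 named genes that were called, 113 passed in that fit too, among them Tcf7, Axin2, Plat, Abcb1a, Wnt2 and Plvap. The 22 that did not pass included Apc, Gpr124, Foxn2, Chst2, Pltp, Pde2a, Ndufa8 and Gls2.

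**Figure D4:**
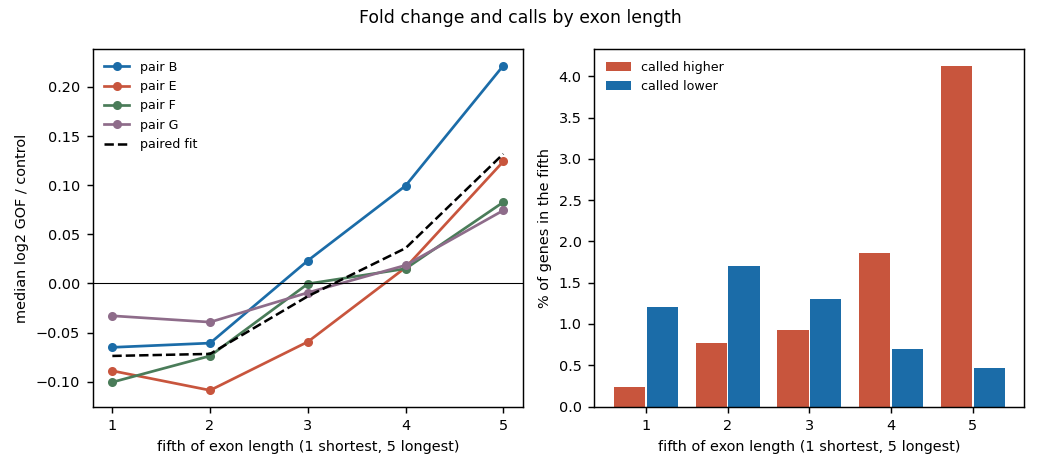
Left, median log2 ratio of GOF to control for 5 classes of tested genes by exon length, for each pair (coloured) and the paired fit (dashed); right, the share of genes in each class called higher or lower. The paired median went from -0.07 in the shortest to 0.13 in the longest class, and 4.12% of the longest class rose against 0.232% of the shortest.

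The same genotypes were compared in lung endothelium, where the paired test called 3 of 15641 genes (0.0192%), and the difference between the tissues was tested as an interaction over 16 libraries. Among 17536 genes 59 were higher (0.336%) and 27 lower (0.154%) in the liver effect relative to the lung effect. Of 140 named genes 27 differed in this way. Most named genes were chosen for their calls in these same liver libraries, so this share cannot be set against that over all genes. Dkk2 had a log2 fold change of 2.82 ± 0.258 (SE) in liver and -0.45 ± 0.246 (SE) in lung, a difference of 3.28 ± 0.368 (SE; edgeR adjusted p = 0.0022). Tcf7 differed by 2.27 ± 0.313 (SE), with 0.98 ± 0.179 (SE) in lung, where it was not called. The leukocyte adhesion genes Vcam1, Sele and Selp, which rose in liver, stood at -0.38 ± 0.0998, -0.49 ± 0.116 and -0.21 ± 0.109 (SE) in lung, not called there, and all 3 differed between tissues. Myof differed by 1.28 ± 0.127 (SE) and Bmx by 1.25 ± 0.150 (SE). Of the fallen genes Olfm1 differed, at 0.30 ± 0.151 (SE) in lung, by -1.56 ± 0.160 (SE). Axin2, Wnt2 and Plvap were not past the threshold of this test, which does not show that they moved alike in the tissues. The count of 86 differing genes became 54 without lung pair D or F and 184 without lung pair E.

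**Figure D5:**
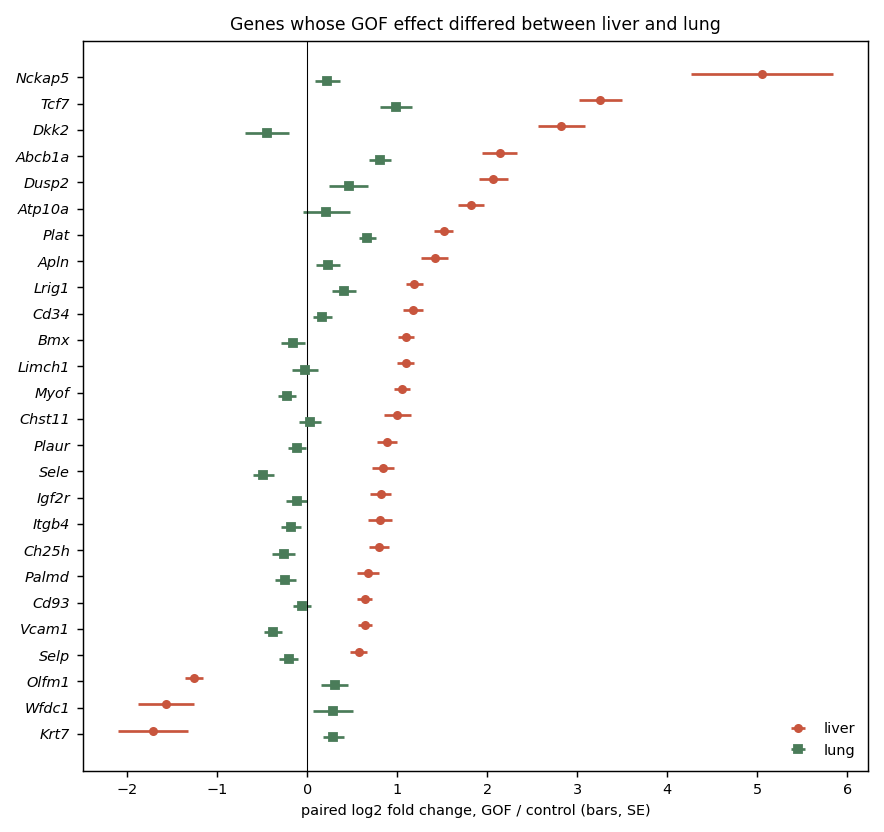
Paired log2 fold change of GOF against control in liver (circles) and lung (squares), with bars for the SE, for the 26 named genes that were tested in both tissues and differed between them. All 23 genes that rose in liver lay further to the right there than in lung, and Olfm1, Wfdc1 and Krt7 lay to the left of 0 in liver and to the right of it in lung. Most named genes were chosen by their liver calls, so the larger changes in liver are in part fixed by that choice.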

How the data were processed

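RNA from CD31-sorted endothelial cells (2 ng input, reads of 100 bases) was sequenced by the study. Per the submitters' processing notes, reads were handled with HTSeq 0.6.1, SAMtools 0.1.19, TopHat2 2.0.11, Bowtie2 2.2.1 and DESeq2 on mm9, in roles that are not stated. Which gene models were used, and whether counting used strand, is likewise not stated, so overlapping, antisense and near-identical genes are uncertain. The files deposited by the authors hold raw counts by gene and library, and a table with a log2 fold change and an adjusted p-value for every gene; 16 deposited columns of CPM were not used. The Total row was left out.

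Counts were tested with edgeR 4.0.16 (R 4.3.3) by the quasi-likelihood test, with TMM scaling, filterByExpr (minimum count 10, total 15) and the replicate letter as a block. Calls have a Benjamini-Hochberg adjusted p under 0.05, SE is the log2 fold change divided by the square root of F, and fold changes use a prior count of 0.125. DESeq2 1.42.0 and limma 3.58.1 were alternatives. The letters are taken as pairs because, in each of 4 pairs, deviations from the group mean correlated across genes between same-letter libraries (0.429, 0.363, 0.271 and 0.239 in B, E, F and G; at most 0.0608 between other letters). The labels do not say what a letter stands for, so p-values may in part measure technical spread. Tested on simulated data of 14679 genes, the paired test recovered 19.4%, 58.2% and 77.3% of log2 changes of 0.5, 1 and 2, with 8 of 111 calls false. Changes were placed only in genes above a minimum mean read count, so recovery at the lowest counts is not covered. Counts were drawn from a negative binomial distribution with the dispersions fitted to these data. Named genes were the called genes of the same sign in 4 of 4 pairs with the 12 smallest p in each direction, the 8 largest CPM differences, those at 0 reads in 1 group, up to 6 called members of each list, and fixed markers. Some results are not reported here, and counts over lists and alternatives include their genes. The members and lists were chosen with earlier results of these data known. Exon lengths came from GENCODE M21, and removal of the length trend was added after seeing the data, as were list counts per alternative.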

Additional observations from a re-analysis of the deposited data

Results flagged for a closer look

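In 13 of 280 groups of 4 libraries examined, 1 library stood apart from the other 3 by a Dixon gap test at the 95% level, and chance flags about 1 in 20 such groups. Low in GOF E was Plat, at 122.9 CPM. High in control G were Dusp2 (31.88 CPM), Limch1 (69.86 CPM) and Igf2r (73.98 CPM), in control B Dhrs7 (180.5 CPM), and in control E Ehd3 (3285 CPM), Ndst1 (155.9 CPM) and Clec4g (1713 CPM). High among GOF libraries were Eda2r in G (25.72 CPM), Prss23 in B (226.6 CPM), Cldn15 in F (23.95 CPM), and Slc43a3 (1387 CPM) and Bmpr2 (219.9 CPM) in E.

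For 27 of 140 named genes, most of them chosen by their calls in liver, the effect differed between liver and lung by the interaction test. The liver minus lung log2 difference was 0.85 for Plat, 2.27 for Tcf7, 0.78 for Lrig1, 1.61 for Dusp2 and for Atp10a, 1.25 for Bmx, 1.12 for Limch1 and 1.28 for Myof. It was 1.33 for Abcb1a, 3.28 for Dkk2, 1.003 for Cd34, 1.18 for Apln, 1.02 for Vcam1, 0.997 for Plaur, 0.70 for Cd93, 1.06 for Ch25h, 0.97 for Chst11 and 0.93 for Igf2r. It was 1.33 for Sele, 4.71 for Nckap5, 0.78 for Selp, 0.98 for Itgb4 and 0.92 for Palmd. Negative differences were -1.56 for Olfm1, -1.86 for Wfdc1, -1.99 for Krt7 and -7.62 for Ttr, which was too low in lung to be tested there and whose fitted value depends on the prior count.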

How the results depend on the processing

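The counts of 240 genes higher in GOF liver and 161 genes lower in GOF liver rested on the replicate block: without it 5 and 0 genes were called by edgeR, and 101 and 52 by DESeq2. With the block DESeq2 called 497 and 381, limma voom 504 and 394, and edgeR with no low-count filter 552 and 435. Leaving out 1 pair gave 134 to 185 rises and 85 to 127 falls. Removing the length trend gave 169 and 151. RLE scaling, upper-quartile scaling, a mean of at least 1 CPM and robust edgeR gave 200 to 291 rises and 154 to 191 falls. The 86 genes that differed between liver and lung became 1 without the block and 229 with no low-count filter, and 54 to 184 on leaving out 1 pair. Of 135 called named genes 0 changed sign in any alternative, which says little, since naming required the same sign in 4 of 4 pairs. Of these 135 genes 76 passed without each of the 4 pairs, and 130 were lost without the block. Among them Cxcl1, Serping1, Foxn2 and Gls2 were lost with RLE scaling, and Gpr124, Lmo2, Cxcl2, Plxna1, Fstl1, Sp5, Cxcl1 and Foxn2 with upper-quartile scaling. The cause of these differences was not tested.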

Other observations

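Genes outside the lists were looked at after their values were seen. For them, results without a pair, without the block or with the length trend removed are not given. Rarb, a retinoic acid receptor, stood at 178, 187, 195 and 212 CPM in control B, E, F and G and at 83.0, 120, 117 and 76.5 CPM in GOF, with a log2 fold change of -0.99 ± 0.130 (SE). Dhrs3, a retinal reductase, fell as well (-1.23 ± 0.191 SE), while the receptors Rara, Rarg and Rxra were not called. Of the NFAT factors, which respond to calcium or osmotic signals, Nfatc2 went from 8.86, 12.2, 17.4 and 18.5 CPM to 30.7, 69.9, 62.0 and 49.2 CPM (1.89 ± 0.180 SE). Nfatc1 (0.69 ± 0.0971 SE) and Nfat5 (0.76 ± 0.113 SE) rose too, and Nfatc3 and Nfatc4 were not called. St8sia2 (1.18 ± 0.148 SE) and St8sia4 (1.76 ± 0.349 SE), the enzymes that add polysialic acid, rose together with Ncam1 (1.003 ± 0.179 SE), its main carrier.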
